A study of Mus musculus with 6 samples.

Results

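The nuclear-encoded genes of the respiratory chain were followed in single-cell RNA sequencing (scRNA-seq) libraries of sorted amygdala cells. Members were the genes whose symbols begin with Nduf, Sdha, Sdhb, Sdhc, Sdhd, Uqcr, Cox4, Cox5, Cox6, Cox7, Cox8 or Atp5, without *Ndufa4l2*, and with a unique molecular identifier (UMI, 1 counted RNA molecule) in at least 1% of cell barcodes. Of 97 genes that matched by name, 93 passed, out of 32285 genes in the count tables. The 4 that did not were *Cox6a2* (a UMI in 0.0221% of barcodes), *Cox7b2* (0.487%), *Cox8b* (0.303%) and *Cox8c* (0.00738%). The members comprised 45 genes of complex I, 8 of complex II, 8 of complex III, 15 of complex IV and 17 of complex V, assembly factors with these prefixes included.

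The respiratory chain sits in the inner mitochondrial membrane. Complexes I and II pass electrons from NADH and succinate to ubiquinone, complex III passes them on to cytochrome c, complex IV (cytochrome c oxidase) passes them to oxygen, and complex V is the ATP synthase driven by the resulting proton gradient. Most subunits are encoded in the nucleus and a few core subunits in mitochondrial DNA, so that each complex other than complex II is built from products of both genomes. Complex IV has nuclear-encoded subunits that exist as isoforms used by different tissues. Astrocytes are the glial cells that clear glutamate around synapses, and pericytes are the mural cells that wrap brain capillaries.

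The study asked how astrocytes of the amygdala change with fear conditioning and recall. All animals were young adult wild-type mice with no transgene, given in the labels as male C57BL/6N (the study's methods name the substrain C57BL/6NCrSlc and, over its experiments as a whole, animals of both sexes), in 4 groups of 4 mice: no fear conditioning (NoFC), fear conditioning (FC), conditioning without recall (NoFR) and fear recall (FR). The study's methods give the amygdala as taken 90 min after the behavioural session began. For FC this was the conditioning session, and for FR the recall session on the next day. For NoFC it was a session in the conditioning chamber without shocks. The methods state that mice were habituated to that chamber beforehand. NoFR mice had no recall session, stayed in their home cages and were taken about a day after conditioning. FC and NoFR mice thus also differed in time since the shocks. Buffers held actinomycin D, triptolide and anisomycin to block transcription and translation in every group. Cells were sorted with an antibody to ACSA-2, an epitope on the ATP1B2 protein. Each of the 3 libraries pooled cells of several mice, which carried hashtag antibodies that mark the mouse, and the series labels name the cell type as astrocyte.

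The matrices held 13546 barcodes, of which 8757 were taken as astrocytes by their glutamate transporter UMIs (*Slc1a2* and *Slc1a3* together at least 20, *Vtn* and *Rgs5* together at most 3) and 2260 as pericytes by the reverse criterion (*Vtn* and *Rgs5* at least 10, *Slc1a2* and *Slc1a3* at most 5). The remaining 2529 barcodes met neither rule (median 761 UMIs) and were not used. The median barcode held 9891 UMIs among astrocytes and 5006 among pericytes. The class sums held 27145742 to 36469481 UMIs per library for astrocytes and 3538589 to 4417539 for pericytes. Of the listed astrocyte markers that did not define the classes, 8 of 8 were higher in astrocytes, and 7 of 7 pericyte markers were lower. The sort antigen's gene *Atp1b2* was read in both classes, at 849, 920 and 871 counts per 1000000 (CPM) in astrocytes and 629, 616 and 643 CPM in pericytes. Between 3 and 8 barcodes were shared by each pair of libraries. Levels of single genes are CPM after TMM scaling, which corrects for differences in RNA composition, sums of genes are CPM without that factor (unscaled CPM), and the replicate is the library for the class comparison and the mouse for the comparison of conditions.

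Between astrocytes and pericytes the nuclear-encoded members as a set differed little on the TMM scale, while a few subunits of complex IV differed by large factors. In edgeR's quasi-likelihood test with the library as a block and Benjamini-Hochberg adjustment over 15365 genes, 38 of 93 members were higher in astrocytes at an adjusted p under 0.05 and 35 were lower. Among all genes tested, 42.8% were higher and 36.9% lower, and among members 40.9% and 37.6%, so with TMM the share of members called was near the background in each direction. The median log2 fold change (astrocytes over pericytes) was 0.04 over members and 0.10 over all genes. A log2 fold change of at least 1 in size was fitted for 9 of 93 members (9.68%) and for 7264 of 15365 genes (47.3%), and one under 0.5 for 65 members (69.9%) and 4995 genes (32.5%). Members had to be read in at least 1% of barcodes, and all genes were not matched to them for level. Whether other genes of similar level differ as little was not tested. Small differences depended on the scaling. Without TMM the median of all genes moved to -0.11 and that of members to -0.17, and 21 members were higher (22.6%) and 52 lower (55.9%), against 36.1% and 43.8% of all genes. The reading that members lay near the background in each direction therefore holds for the TMM scale only. The same shift applies to every log2 fold change below, which are all on the TMM scale unless stated. The shares of all genes given here, with and without TMM, are the background for each count by complex, role or list below. Many of those counts cover few genes.

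**Figure D1:**
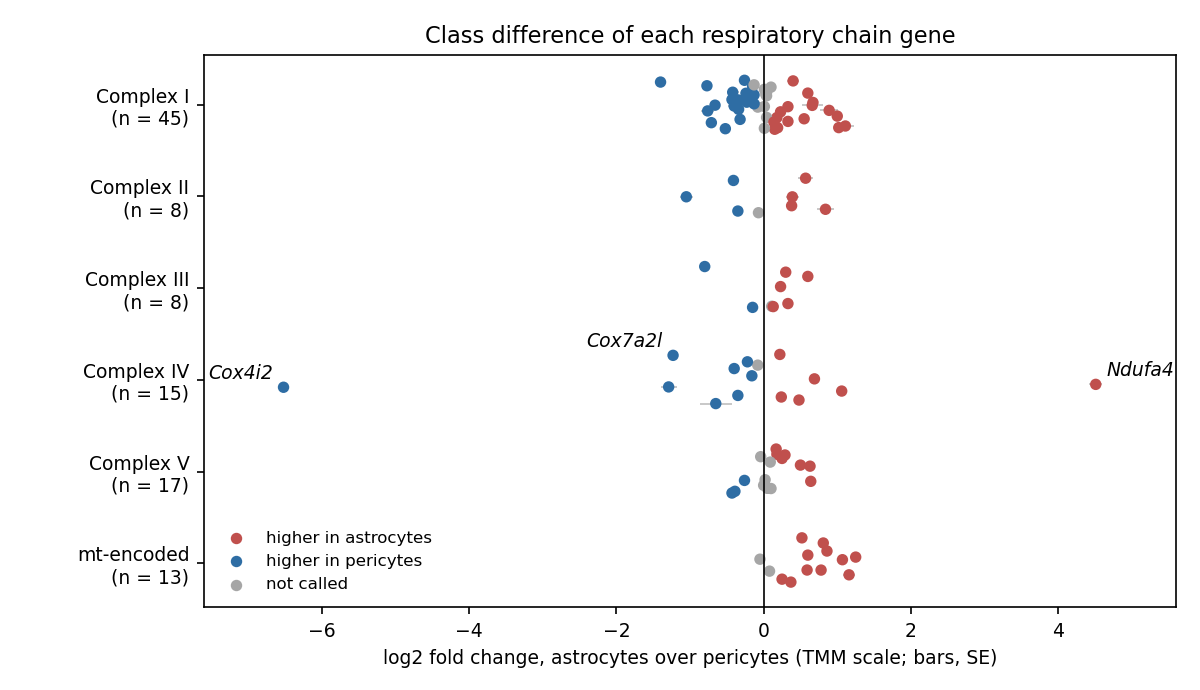
Each point is 1 gene and shows its log2 fold change of astrocytes over pericytes (horizontal axis, TMM scale, bars are SE of the edgeR fit over 3 libraries), by complex for the 93 nuclear-encoded members and in the bottom row for the 13 mt-encoded protein genes. Most members lie within 1 of zero, *Cox4i2* lies at -6.52 and *Ndufa4* at 4.51, and 11 of the 13 mt-encoded genes were higher in astrocytes.

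Complex IV held both of the widest differences. *Cox4i2* (ENSMUSG00000009876, chr2:152754173-152765037 on the forward strand, GRCm38 positions of GENCODE vM21) encodes the alternative isoform of subunit 4, known from lung and oxygen-sensing tissues. Its level was 5.43, 4.18 and 5.01 CPM in the astrocytes of libraries 1, 2 and 3 and 491, 412 and 440 CPM in the pericytes. Every pericyte value lay far above every astrocyte value, with a log2 fold change of -6.52 ± 0.07 (SE, n = 3 libraries, adjusted p = 2.03e-32), 91.5-fold. As far or farther in that direction lay 494 of 15365 genes tested (3.22%). *Cox4i1* (ENSMUSG00000031818, on the forward strand of chromosome 8, chr8:120668222-120674207), the common isoform of the same subunit, stood at 469, 410 and 421 CPM in astrocytes and 374, 371 and 372 CPM in pericytes. Its log2 fold change was 0.22 ± 0.05 (adjusted p = 0.000356), and it was 0.01 without TMM (adjusted p = 0.904). *Cox4i2* therefore made up 54.5 ± 2.08% (SD, n = 3 libraries) of the UMIs of the 2 subunit 4 genes in pericytes and 1.11 ± 0.0885% in astrocytes, a share that no scaling between the classes can change.

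The *Cox4i2* pattern was present in single barcodes. At least 1 *Cox4i2* UMI was found in 80.7 ± 0.971% of pericytes and in 4.19 ± 0.311% of astrocytes. After each barcode was thinned to 4000 UMIs, which left out 551 pericytes and 733 astrocytes below that depth, the shares were 77.6 ± 3.26% and 1.7 ± 0.408%. The level in astrocytes was 1.09 ± 0.0648% of that in pericytes. The same percentage was 0.0473 to 0.0592% for the pericyte markers *Kcnj8*, *Abcc9*, *Higd1b* and *Anpep*, 0.436% for *Cspg4*, 1.72% for *Atp13a5* and 4.79% for *Pdgfrb*. The astrocyte value for *Cox4i2* thus lay above that of 5 of 7 pericyte markers. Whether it came from astrocytes or from RNA free in the suspension was not tested.

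*Ndufa4* (ENSMUSG00000029632, chr6:11900292-11907497, reverse strand) showed the opposite pattern. The protein was first described with complex I and is known as a subunit of complex IV. It was read at 347, 315 and 320 CPM in astrocytes and 12.2, 14.6 and 16.8 CPM in pericytes. The groups lay far apart in all 3 libraries, with a log2 fold change of 4.51 ± 0.09 (adjusted p = 3.76e-26), 22.7-fold. As far or farther in that direction lay 1446 of 15365 genes tested (9.41%). *Ndufa4l2*, the paralog of *Ndufa4*, was left out by the naming rule. It was at 0.62, 0.482 and 1.15 CPM in astrocytes and 1094, 1059 and 1062 CPM in pericytes. Of the UMIs of the pair, *Ndufa4* held 99.8 ± 0.112% in astrocytes and 1.34 ± 0.232% in pericytes, which is close to a complete exchange of 1 paralog for the other. In single barcodes, *Ndufa4* was detected in 76.1 ± 1.45% of the astrocytes and 6.27 ± 1.19% of the pericytes, and after thinning to 4000 UMIs in 60.4 ± 2.18% and 4.61 ± 0.812%.

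The pericyte level of *Ndufa4* was 4.47 ± 0.896% of its astrocyte level. For the astrocyte markers *Aqp4*, *Aldoc*, *Gja1*, *Clu* and *Slc4a4* the same percentage was 0.702 to 1.08%, for *Glul* 4.52% and for *Atp1b2* 71.6%, while *Gfap* had 0 UMIs in pericytes. Part of the *Ndufa4* signal in the pericyte class lay in the 68 pericyte barcodes (3.01%) with 5 or more UMIs of the smooth muscle genes *Acta2*, *Tagln* and *Myh11*. There *Ndufa4* was at 71.6, 52.2 and 68.9 unscaled CPM in libraries 1, 2 and 3, from 14, 6 and 12 UMIs, against 10.2, 14.6 and 15.8 in the other pericyte barcodes. *Cox4i2* was at 578, 462 and 442 unscaled CPM in the barcodes with smooth muscle UMIs and 518, 445 and 479 in the others, so its values overlapped. With 6 to 14 UMIs per library these are descriptions without a test.

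**Figure D2:**
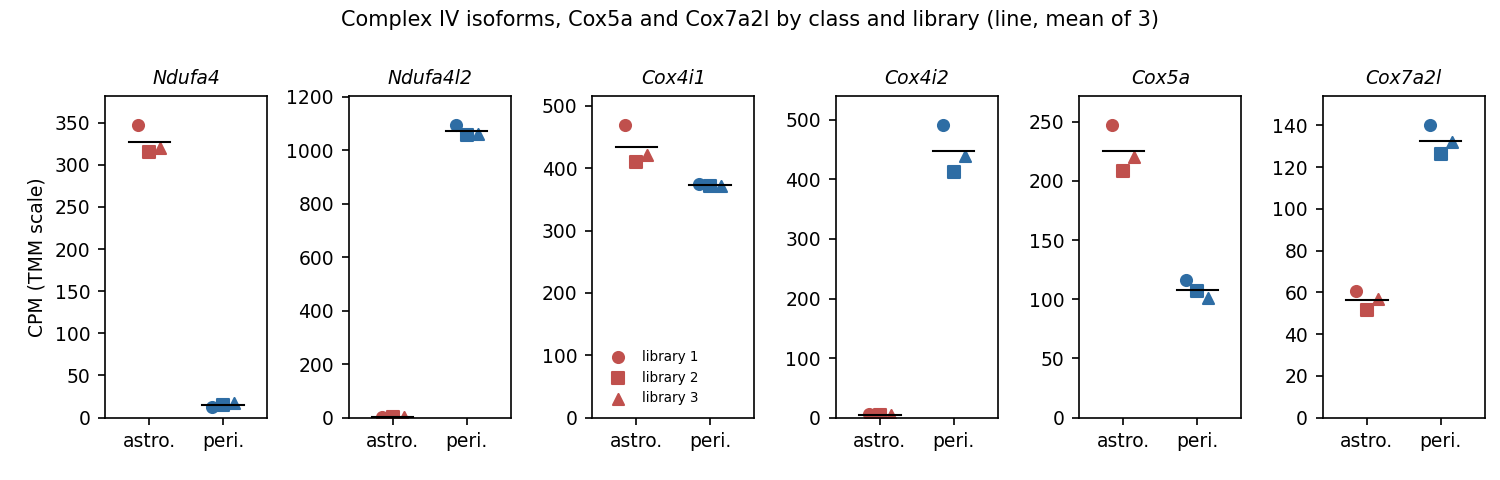
Level of 6 genes in CPM on the TMM scale (vertical axes start at 0) in astrocytes (red) and pericytes (blue), with 1 symbol per library and a line at the mean of 3. *Ndufa4* and *Ndufa4l2* exchanged between the classes, *Cox4i2* was high in pericytes only beside a *Cox4i1* level that differed by 1.16-fold, and *Cox5a* and *Cox7a2l* differed in opposite directions.

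The upstream sequence of *Ndufa4* was set beside that of *Cox7a2l*, which was higher in pericytes, and of *Cox6a1* and *Sdhaf3*. The last 2 were chosen because they hold motifs found upstream of a larger share of members than of all genes, though most members lack each. Shown are the 250 bases before the annotated RefSeq start (GRCm38.p6), 5′ to 3′ on the gene's strand, from chr6:11907451-11907700 (*Ndufa4*, reverse strand), chr17:83514334-83514583 (*Cox7a2l*, reverse strand), chr5:115348959-115349208 (*Cox6a1*, reverse strand) and chr6:6955768-6956017 (*Sdhaf3*, forward strand). The *Cox7a2l* window lies inside the GENCODE vM21 span of the gene (chr17:83501918-83517330), because its RefSeq start is downstream of the GENCODE 5′ end. Capitals mark matches to the motifs below.
Ndufa4: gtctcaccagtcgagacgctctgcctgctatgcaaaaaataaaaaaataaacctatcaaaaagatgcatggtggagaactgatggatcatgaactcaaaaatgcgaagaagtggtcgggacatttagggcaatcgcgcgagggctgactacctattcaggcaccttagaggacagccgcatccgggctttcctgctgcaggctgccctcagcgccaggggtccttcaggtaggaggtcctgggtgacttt
Cox7a2l: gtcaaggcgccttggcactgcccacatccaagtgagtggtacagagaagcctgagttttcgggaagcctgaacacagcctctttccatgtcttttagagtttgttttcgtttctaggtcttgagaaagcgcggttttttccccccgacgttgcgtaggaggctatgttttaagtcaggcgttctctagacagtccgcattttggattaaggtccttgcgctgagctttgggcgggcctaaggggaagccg
Cox6a1: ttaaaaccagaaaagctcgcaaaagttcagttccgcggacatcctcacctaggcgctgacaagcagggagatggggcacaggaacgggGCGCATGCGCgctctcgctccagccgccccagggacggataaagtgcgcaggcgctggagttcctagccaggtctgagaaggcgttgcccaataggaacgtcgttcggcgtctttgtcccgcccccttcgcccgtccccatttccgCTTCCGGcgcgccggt
Sdhaf3: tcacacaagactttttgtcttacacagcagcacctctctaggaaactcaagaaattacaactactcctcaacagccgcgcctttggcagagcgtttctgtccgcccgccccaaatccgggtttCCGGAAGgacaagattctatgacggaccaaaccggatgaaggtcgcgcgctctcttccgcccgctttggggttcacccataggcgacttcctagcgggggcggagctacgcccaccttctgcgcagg
The core GCGCATGC of nuclear respiratory factor 1 (NRF1), searched on both strands, overlaps included, was present upstream of 9 of the 77 members with a RefSeq promoter (11.7%) and of 692 of 27025 genes in all (2.56%). The core CCGGAAG of ETS factors such as GABP was present upstream of 16 members (20.8%) and 7.83% of all genes. TATAAA was present upstream of 6 members (7.79%) and 14.3% of all genes, and TGGGAA, the core bound by RBPJ, upstream of 14 members (18.2%) and 24.1% of all genes. No match to the 4 motifs was found in the windows of *Ndufa4* and *Cox7a2l*, which says only that these letters are not there. In *Cox6a1* the capitals mark an NRF1 core read on both strands and an ETS core, and in *Sdhaf3* an ETS core. The NRF1 core was found for 4 of 30 members higher in astrocytes, 2 of 27 lower and 3 of 20 not called, and the ETS core for 6, 4 and 6 of the same members.

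The other members of complex IV moved less. *Cox5a* (ENSMUSG00000000088, chr9:57521274-57532426, forward strand), which binds next to the catalytic core, was at 247, 208 and 220 CPM in astrocytes and 116, 107 and 101 CPM in pericytes, a log2 fold change of 1.06 ± 0.06 (adjusted p = 8.02e-16). All 3 astrocyte values lay above the pericyte values. *Cox7b* was also higher in astrocytes, at 248, 230 and 235 CPM against 148, 143 and 152 CPM (log2 fold change 0.69 ± 0.05, adjusted p = 2.62e-12). *Cox7a2l* (ENSMUSG00000024248, chr17:83501918-83517330, reverse strand), listed here under supercomplex assembly, was lower in astrocytes. It was at 60.4, 51.7 and 56.9 CPM against 140, 126 and 132 CPM (log2 fold change -1.23 ± 0.06, adjusted p = 1.36e-17). Supercomplexes themselves were not measured. Here the pericyte libraries held the higher values without overlap.

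Among the remaining isoform sets of complex IV, the minor isoforms *Cox6b2* and *Cox7a1* were members. *Cox6a2* and *Cox8b* did not pass the 1% limit and were not compared. *Cox6b2*, described mainly from testis, stood at 16.2, 13.7 and 13.7 CPM in astrocytes and 31.4, 37.1 and 39.4 CPM in pericytes (log2 fold change -1.29 ± 0.11, adjusted p = 1.67e-11), and it made up 5.99 ± 0.346% of *Cox6b1* and *Cox6b2* UMIs in astrocytes and 12.9 ± 1.39% in pericytes. *Cox6b1* itself was not called (-0.08 ± 0.05, adjusted p = 0.128). *Cox7a1*, the isoform of heart and skeletal muscle, was low in both classes, at 4.4, 3.82 and 4.9 CPM against 5.97, 8.37 and 6.44 CPM (log2 fold change -0.65 ± 0.22, adjusted p = 0.0087). This call was lost without library 2 (-0.42, adjusted p = 0.151), with DESeq2 (-0.65, adjusted p = 0.0921) and among barcodes of 4000 to 8000 UMIs (-0.54, adjusted p = 0.114). *Cox7a1* made up 2.04 ± 0.294% of *Cox7a1* and *Cox7a2* UMIs in astrocytes and 2.75 ± 0.399% in pericytes. *Cox7a2* had a log2 fold change of -0.22 ± 0.05 (adjusted p = 0.000757), *Cox8a* of -0.16 ± 0.05 (adjusted p = 0.00504) and *Cox6a1* of -0.40 ± 0.05 (adjusted p = 4.97e-08). DESeq2 called neither *Cox7a2* (adjusted p = 0.0962) nor *Cox8a* (adjusted p = 0.109), and *Cox8a* was not called either without the filter on low counts (-0.09, adjusted p = 0.114). Over complex IV, 6 of 15 members were higher in astrocytes, 8 were lower and 1 was not called, and 4 were higher and 9 lower without TMM.

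In complex I, which takes electrons from NADH, 16 of 45 members were higher in astrocytes, 19 lower and 10 not called, with a median log2 fold change of 0.01. Without TMM, 9 were higher and 28 lower. Of the 7 core subunits, most of which carry redox centres, 3 were higher and 4 lower (1 and 4 without TMM). *Ndufs7*, which carries the last iron-sulfur cluster before ubiquinone, was lower in astrocytes (131, 112 and 122 CPM against 208, 194 and 196 CPM, log2 fold change -0.71 ± 0.05, adjusted p = 7.37e-13), whereas *Ndufs1*, the large iron-sulfur subunit of the NADH arm, was higher (101, 99.9 and 101 CPM against 60.8, 60.7 and 69.1 CPM, log2 fold change 0.67 ± 0.06, adjusted p = 2.65e-10). Core subunits of the same complex thus moved in opposite directions.

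The 30 accessory subunits of complex I split into 8 higher, 13 lower and 9 not called, and into 3, 21 and 6 without TMM. *Ndufa12* was at 213, 196 and 201 CPM in astrocytes and 113, 101 and 85.9 CPM in pericytes (log2 fold change 1.02 ± 0.06, adjusted p = 1.00e-14), and *Ndufc2* at 312, 276 and 279 CPM against 149, 145 and 141 CPM (1.00 ± 0.05, adjusted p = 1.04e-15). Both were about as far apart as *Cox5a*. The accessory subunits furthest in the other direction were *Ndufb2* (log2 fold change -0.77 ± 0.05, adjusted p = 1.51e-13), *Ndufa1* (-0.66 ± 0.06, adjusted p = 1.49e-10) and *Ndufv3* (-0.52 ± 0.05, adjusted p = 1.36e-09). Of the 8 assembly factors of complex I, 5 were higher in astrocytes and 2 lower (5 and 3 without TMM). *Ndufaf6* stood at 25.3, 27 and 26.5 CPM against 12.8, 11 and 12.4 CPM (1.11 ± 0.12, adjusted p = 1.40e-09), and *Ndufaf5*, which modifies Ndufs7 early in assembly, at 22.4, 24.5 and 24.6 CPM against 13.9, 12.8 and 11.6 CPM (0.89 ± 0.12, adjusted p = 1.24e-07). *Ndufaf1* had a log2 fold change of 0.66 ± 0.14 (adjusted p = 8.62e-05). *Ndufaf3* was lower in astrocytes (-0.76 ± 0.09, adjusted p = 6.28e-09).

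Complex II, the succinate dehydrogenase, is wholly nuclear-encoded. Of its 8 members, 4 were higher in astrocytes and 3 lower (3 and 4 without TMM), and its subunits differed little. *Sdha*, the flavoprotein, was at 148, 145 and 146 CPM in astrocytes and 159, 148 and 152 CPM in pericytes and was not called (log2 fold change -0.07 ± 0.05, adjusted p = 0.249). *Sdhb*, the iron-sulfur subunit, was at 140, 127 and 133 CPM against 103, 105 and 102 CPM and was higher in astrocytes (0.38 ± 0.06, adjusted p = 1.14e-06). The membrane anchors *Sdhc* (-0.35 ± 0.06, adjusted p = 3.98e-06) and *Sdhd* (-0.41 ± 0.08, adjusted p = 2.31e-05) were lower. The assembly factors *Sdhaf1* and *Sdhaf3*, which both help to build the iron-sulfur subunit, went in opposite directions. *Sdhaf1* was at 18, 16.6 and 15.5 CPM in astrocytes and 38.8, 31.9 and 32.9 CPM in pericytes (-1.05 ± 0.09, adjusted p = 6.30e-11), and *Sdhaf3* at 21.8, 22.6 and 21.7 CPM against 12.8, 11.5 and 12.6 CPM (0.84 ± 0.12, adjusted p = 3.90e-07).

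In complex III, 5 of 8 members were higher in astrocytes and 2 lower, and 2 were higher and 2 lower without TMM. *Uqcrb*, which contributes to a ubiquinone site, was the widest at 156, 142 and 136 CPM in astrocytes against 242, 259 and 257 CPM in pericytes (log2 fold change -0.80 ± 0.05, adjusted p = 1.80e-13). The pericyte values were higher in each library. Complex V, the ATP synthase, had the narrowest range of all complexes, from -0.43 to 0.64, and 7 of its 17 members were not called. Of its 5 F1 subunits 0 were higher in astrocytes and 3 were lower, and of its 10 Fo and stalk subunits 5 were higher and 0 lower. Among all genes 42.8% were higher and 36.9% lower, and with so few subunits the contrast was not tested. Without TMM the F1 subunits were 0 higher and 5 lower, the Fo and stalk subunits 2 higher and 4 lower, and complex V as a whole 3 higher and 9 lower. *Atp5o*, the subunit that links the stalk to the catalytic head, was at 211, 184 and 193 CPM in astrocytes and 129, 115 and 134 CPM in pericytes (0.64 ± 0.06, adjusted p = 4.29e-11), and the small accessory subunit *Atp5mpl* at 182, 177 and 178 CPM against 113, 115 and 119 CPM (0.63 ± 0.05, adjusted p = 3.33e-11). The 3 genes for the same c-ring protein kept nearly equal shares in both classes: *Atp5g1* made up 25.2 ± 0.0917% of their UMIs in astrocytes and 25.5 ± 1.38% in pericytes, *Atp5g2* 39.8 ± 0.813% and 41.4 ± 1.25%, and *Atp5g3* 35 ± 0.727% and 33.1 ± 1.71%. None of the 3 was called, with log2 fold changes of 0.00 ± 0.06, -0.04 ± 0.05 and 0.10 ± 0.05.

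Summed over all 93 members, the level was 13952, 12766 and 13268 unscaled CPM in the astrocytes of libraries 1, 2 and 3 and 15357, 15385 and 15486 in the pericytes. Astrocytes were lower in every library, by a mean log2 of -0.21 ± 0.07 (SD, n = 3), but on the TMM scale the same difference was 0.00 ± 0.05, so the direction of the sum depended on the scaling. Without *Ndufa4* and *Cox4i2* it was -0.20 ± 0.07 on the unscaled CPM. By complex, the log2 difference in unscaled CPM was -0.24 ± 0.06 for complex I, -0.21 ± 0.01 for complex II, -0.14 ± 0.06 for complex III, -0.25 ± 0.08 for complex IV and -0.15 ± 0.07 for complex V, and -0.03 ± 0.04, 0.01 ± 0.01, 0.07 ± 0.04, -0.03 ± 0.06 and 0.06 ± 0.05 on the TMM scale. The complex IV sum holds *Ndufa4* but not its pericyte counterpart *Ndufa4l2*, which is no member. With *Ndufa4l2* added, the complex IV difference was -0.62 ± 0.08 in unscaled CPM and -0.41 ± 0.06 on the TMM scale.

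The mt-encoded partners behaved differently from the nuclear-encoded genes. Their sum over 13 protein genes was 22344, 21900 and 22509 unscaled CPM in astrocytes and 18023, 17200 and 18038 in pericytes, higher in astrocytes by a log2 of 0.33 ± 0.02 in unscaled CPM and 0.54 ± 0.04 on the TMM scale. In the edgeR test 11 of 13 were higher in astrocytes and 0 lower, with a median log2 fold change of 0.60, and without TMM 10 were higher and 2 lower. The widest were *mt-Nd5* (log2 fold change 1.25 ± 0.05, adjusted p = 2.53e-18), *mt-Nd6* (1.16 ± 0.08, adjusted p = 5.66e-14) and *mt-Co1* (1.07 ± 0.06, adjusted p = 2.15e-15), and *mt-Nd2* (0.86 ± 0.06), *mt-Nd4* (0.81 ± 0.06), *mt-Nd4l* (0.78 ± 0.05), *mt-Atp8* (0.60 ± 0.06), *mt-Co3* (0.59 ± 0.06), *mt-Nd1* (0.52 ± 0.05), *mt-Co2* (0.37 ± 0.06) and *mt-Atp6* (0.25 ± 0.06) followed. *mt-Cytb* (0.08 ± 0.06, adjusted p = 0.186) and *mt-Nd3* (-0.05 ± 0.05, adjusted p = 0.408) were not called, and both turned with the scaling or the depth: *mt-Cytb* was at -0.13 without TMM, and *mt-Nd3* at 0.23 among barcodes of 4000 to 8000 UMIs. *mt-Atp6* was at 0.03 without TMM (adjusted p = 0.561) and lost its call without library 2 (0.23, adjusted p = 0.0796).

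The ratio of nuclear-encoded to mt-encoded UMIs is free of the scaling between classes. It was 0.624, 0.583 and 0.589 in astrocytes and 0.852, 0.894 and 0.858 in pericytes, a mean of 0.599 ± 0.0223 against 0.868 ± 0.0229 (SD, n = 3 libraries) with no overlap. With members alone counted, the gap was widest in complex I, at 0.736 ± 0.04 against 1.28 ± 0.0149. It was present in complex IV (0.357 ± 0.0149 against 0.582 ± 0.0152) and complex V (0.899 ± 0.0172 against 1.03 ± 0.0421). The complex IV ratio holds *Ndufa4* but not *Ndufa4l2*. With *Ndufa4l2* added, the nuclear-encoded complex IV sum was 3283 unscaled CPM in astrocytes and 5037 in pericytes. The mt-encoded complex IV sum was 9189 and 6682. In complex III, where *mt-Cytb* is the single mt-encoded gene, the ratios overlapped (0.492 ± 0.0196 against 0.496 ± 0.0134). Barcodes with 6% or more of their UMIs from mt- genes, a usual sign of damaged cells, made up 7.09% of the astrocytes and 0.885% of the pericytes. With those barcodes left out the astrocyte ratio was 0.643 ± 0.0249, still below the pericyte range.

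**Figure D3:**
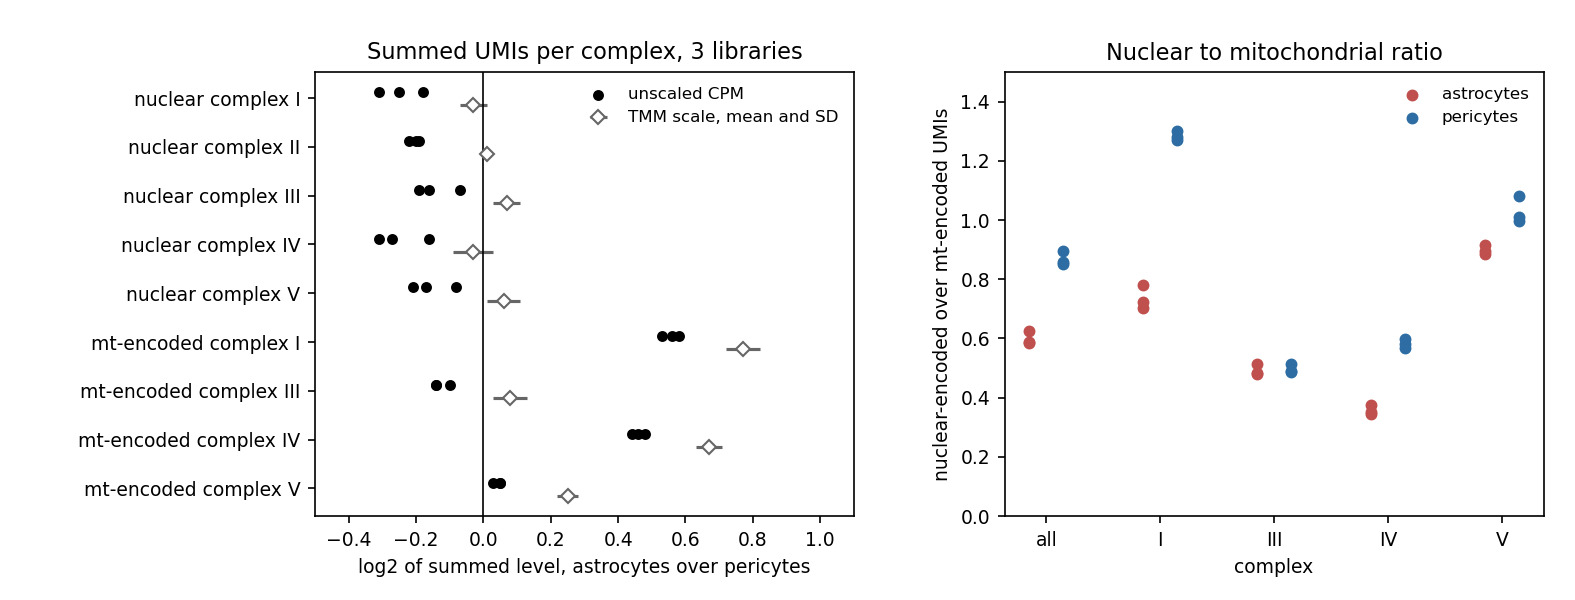
Left, log2 of the summed level in astrocytes over pericytes for the nuclear-encoded and mt-encoded genes of each complex, as 1 black point per library (unscaled CPM) and as mean and SD on the TMM scale (open diamonds). Right, ratio of nuclear-encoded to mt-encoded UMIs by complex, 1 point per library, with pericytes (blue) above astrocytes (red) for all genes and for complexes I, IV and V, and overlapping in complex III.

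Within astrocytes the mean member level rose with the share of mt- UMIs, except between the 2 to 4% and 4 to 6% ranges. Grouped by their share of mt- UMIs, astrocytes with under 1% had a summed member level of 10016 ± 367 CPM, counted over UMIs of other than mt- genes (SD, n = 3 libraries), those with 1 to 2% had 12483 ± 617, those with 2 to 4% had 15322 ± 670, those with 4 to 6% had 14848 ± 681 and those with 6% or more had 17484 ± 1532. In pericytes the level was 13992 ± 119, 15734 ± 170 and 16105 ± 618 in the lowest 3 ranges, and the upper ranges held under 20 barcodes per library. Below a share of 2% the astrocyte values lay under the pericyte values of the same range in all 3 libraries. At 2 to 4% the astrocyte value lay above the pericyte value in library 1 (16056 against 15409). It lay below in libraries 2 (14745 against 16317) and 3 (15165 against 16589). The sums of a library share their barcodes and depth, and no test was made.

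Genes that work beside the chain were taken from 5 lists. The first also holds *Cyc1*, a complex III subunit gene that the name prefixes missed (log2 fold change 0.02 ± 0.06, not called). Of 41 tested cytochrome c and assembly genes, 18 were higher in astrocytes and 11 lower (median log2 fold change 0.14), and 14 and 16 without TMM. *Chchd10*, a protein of the intermembrane space, was at 387, 340 and 351 CPM in astrocytes and 16.9, 17.3 and 16.3 CPM in pericytes (4.42 ± 0.08, adjusted p = 5.93e-27). The copper chaperone *Sco2* (3.10 ± 0.22, adjusted p = 2.98e-13) and *Lyrm7*, a factor of complex III (1.64 ± 0.18, adjusted p = 2.84e-09), were higher as well. So was *Cox10*, which acts at an early step of haem A synthesis for complex IV (2.08 ± 0.08, adjusted p = 8.59e-20). Of 18 genes of the tricarboxylic acid cycle and its entry, 11 were higher and 3 lower (median 0.36), and 9 and 7 without TMM. *Cs*, citrate synthase, was the widest, at 167, 181 and 174 CPM in astrocytes and 46.1, 51.5 and 53 CPM in pericytes (1.79 ± 0.06, adjusted p = 7.16e-20), followed by *Suclg1* (1.32 ± 0.06), *Idh2* (1.21 ± 0.06) and the pyruvate carboxylase gene *Pcx* (1.05 ± 0.07).

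Of 15 regulators of mitochondrial biogenesis, 4 were higher in astrocytes and 7 lower (median 0.03). A log2 fold change of at least 1 in size was fitted for 6 of them (40%), beside the 47.3% of all genes given above, and one under 0.5 for 8 (53.3%). *Ppargc1a* and *Ppargc1b* encode the related coactivators PGC-1α and PGC-1β. *Ppargc1a* was at 208, 216 and 212 CPM in astrocytes and 1.92, 2.62 and 4.95 CPM in pericytes (6.09 ± 0.13, adjusted p = 1.27e-25), while *Ppargc1b* was at 1.09, 1.17 and 1.11 CPM in astrocytes and 75.5, 68.6 and 69.3 CPM in pericytes (-5.99 ± 0.13, adjusted p = 2.00e-25). Each class thus carried 1 of the paralogs. *Esrrg*, an orphan receptor that works with them, was at 22.5, 22.3 and 23.8 CPM in astrocytes and 0, 0.262 and 0.495 CPM in pericytes, and *Nrf1*, whose motif was counted above, at 162, 166 and 160 CPM against 68.5, 61 and 68.6 CPM (1.30 ± 0.06, adjusted p = 8.57e-17). Of 26 carriers and import genes, 13 were higher and 7 lower (median 0.18), and 9 and 10 without TMM. The glutamate carrier *Slc25a18* was at 228, 245 and 250 CPM against 2.77, 1.83 and 3.22 CPM (6.51 ± 0.12, adjusted p = 6.69e-27), *Slc25a13* was at 1.45, 1.61 and 1.91 CPM in astrocytes and 0.853, 0 and 0 CPM in pericytes, and *Slc25a12* (1.20 ± 0.06) and the pyruvate carrier *Mpc1* (1.13 ± 0.06) were higher. Of 9 mitochondrial antioxidant genes 3 were higher and 5 lower (median -0.39), with *Gpx1* (-2.66 ± 0.07, adjusted p = 1.01e-22) and *Txn2* (-1.09 ± 0.06) lower, and *Nnt* (1.44 ± 0.25) and *Glrx2* (0.78 ± 0.07) higher.

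Summed markers of other cell types differed between the classes, though single genes of a list did not always go the same way. The summed smooth muscle list (5 genes) was at 0.683 to 0.957 CPM in astrocytes, with *Cnn1* at 0, and 211 to 270 CPM in pericytes. The endothelial list was at 1.41 to 6.05 and 124 to 132 CPM, the fibroblast list at 20.2 to 31.7 and 212 to 242 CPM, the neuron list at 14.9 to 19.7 and 300 to 338 CPM, the microglia list at 16.4 to 20.7 and 8.9 to 14.1 CPM (*C1qa* at 0 in pericytes), and the oligodendrocyte list at 11.6 to 12.5 and 4.05 to 7.59 CPM (*Mog* and *Mobp* at 0 in pericytes). The pericyte totals came mostly from *Flt1*, *Col1a2* and *Meg3*. Of the 5 neuron genes, 4 were called higher in astrocytes and only *Meg3* lower. Of 3 fibroblast genes tested, 2 were lower in astrocytes and 1, *Col1a1*, was higher (3.17 ± 0.35). With the barcodes with smooth muscle UMIs left out, 39 members were called higher and 34 lower. The part of the other cell types in the class difference was not tested.

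Between the 4 behavioural groups no member was called in either class. Mice were identified by their hashtags in 1852 astrocytes (45 to 228 per mouse) and 941 pericytes (38 to 113 per mouse), and the sums per mouse held 533460 to 2540787 UMIs of astrocytes and 179205 to 612574 of pericytes. Hashtag signal on astrocytes was weak. The strongest hashtag had a median of 4 UMIs there and the next 2, while on pericytes the medians were 18 and 3. Wrong hashtag calls would mix mice of different groups, and how many were wrong was not tested. The absence of called members in astrocytes is therefore no evidence of equal levels. The summed member level in astrocytes was 10739, 11088, 13582 and 15936 unscaled CPM in the 4 NoFC mice, 12446, 12486, 12677 and 13288 in FC, 13614, 13738, 13876 and 14516 in NoFR and 11988, 12259, 14356 and 15024 in FR. The NoFC mice spanned all FC and NoFR values, and the FC and NoFR ranges did not overlap. The FC mice came from libraries 1 and 2 and the NoFR mice from libraries 1 and 3, with 2 mice from each. In pericytes the level was 15484, 16011, 16427 and 17002 in NoFC, 14866, 14984, 15748 and 16386 in FC, 14755, 15236, 16249 and 16746 in NoFR and 14484, 15187, 15989 and 16161 in FR, and all 4 ranges overlapped. The 13 mt-encoded genes summed to between 20278 and 22323 unscaled CPM in the astrocytes and between 15974 and 19327 in the pericytes of the 16 mice.

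**Figure D4:**
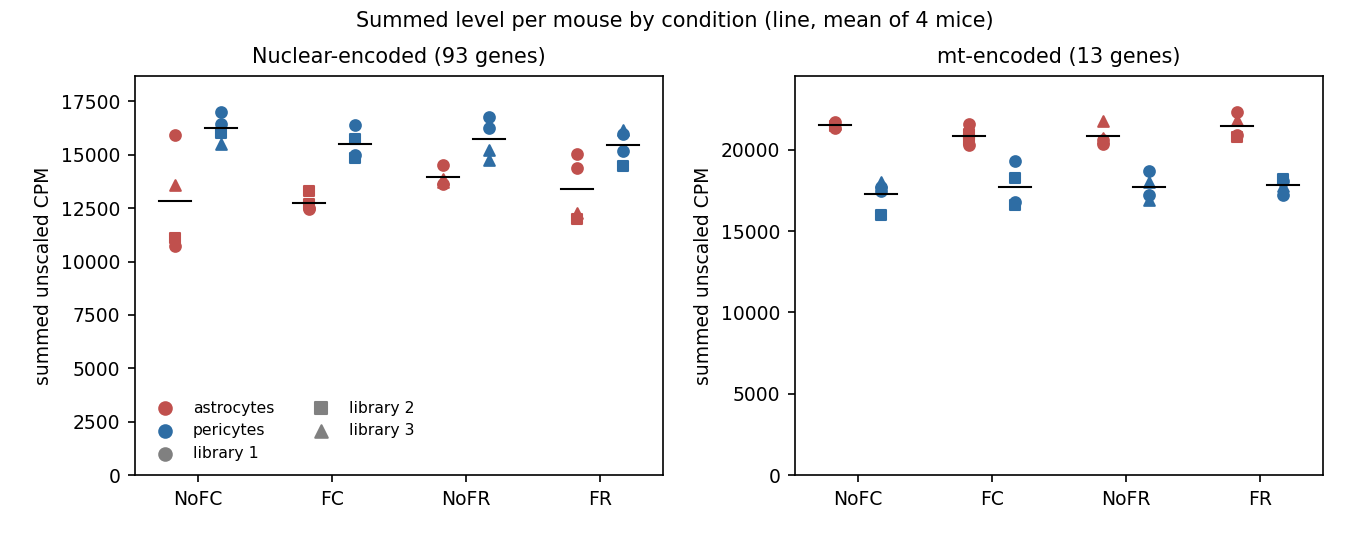
Summed unscaled CPM of the 93 nuclear-encoded members (left) and of the 13 mt-encoded protein genes (right) by condition, with 1 point per mouse (4 per condition and class, symbols give the library) and a line at the mean. Astrocytes (red) of NoFC mice ranged from 10739 to 15936 on the left, pericytes (blue) from 14484 to 17002 over all conditions, and the mt-encoded sums of astrocytes lay above those of pericytes in every mouse.

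In astrocytes, edgeR's quasi-likelihood test with the library as covariate tested 91 members among 10113 genes and called 0 members and 0 genes (0%) at an adjusted p under 0.05 in each of the 6 pairs of groups. DESeq2 also called 0 members. At an unadjusted p under 0.05 there were 2 members for FC over NoFC, 3 for NoFR over NoFC, 0 for FR over NoFC, 3 for NoFR over FC, 1 for FR over FC and 3 for FR over NoFR, or 0 to 3.3% of members beside 3.52 to 6.22% of all genes. The member with the smallest p was *Ndufc1* for FC over NoFC (log2 fold change -0.28 ± 0.12, adjusted p = 1), *Atp5j2* for NoFR over NoFC (0.31 ± 0.13, adjusted p = 0.715), *Sdhaf3* for FR over NoFC (0.49 ± 0.26, adjusted p = 0.994), *Atp5d* for NoFR over FC (0.32 ± 0.13, adjusted p = 0.992), *Sdhb* for FR over FC (0.29 ± 0.11, adjusted p = 1) and *Ndufa8* for FR over NoFR (-0.31 ± 0.13, adjusted p = 1). In all 6 the mice of the 2 groups overlapped. *Ndufa4* was the member furthest towards astrocytes in the comparison with pericytes. Its level in astrocytes was 259 to 360 CPM in NoFC, 289 to 305 in FC, 287 to 383 in NoFR and 251 to 373 in FR mice.

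In pericytes, 86 members among 6173 genes were tested and 0 were called in each pair. Over all genes 0 (0%) were called for FC over NoFC, 62 (1.00%) for NoFR over NoFC, 2 (0.0324%) for FR over NoFC, 21 (0.340%) for NoFR over FC, 0 (0%) for FR over FC and 5 (0.0810%) for FR over NoFR. DESeq2 called 0 members as well. In each pair 2 to 5 members had an unadjusted p under 0.05, or 2.33 to 5.81% of members beside 4.24 to 9.1% of all genes. *Cox6b1* had the smallest p of 2 pairs: it was at 214, 219, 224 and 230 CPM in NoFR mice, 282, 283, 294 and 318 CPM in NoFC mice and 235, 260, 317 and 322 CPM in FR mice. NoFR lay below both other groups without overlap, with log2 fold changes of -0.44 ± 0.15 for NoFR over NoFC (adjusted p = 0.185) and 0.42 ± 0.15 for FR over NoFR (adjusted p = 0.469). Both pairs hold the same NoFR mice, and *Cox6b1* was picked for its small p among 86 members. Nothing is drawn from the lack of overlap. *Ndufs1* was at 78.5, 90.5, 94.6 and 102 CPM in FR and 42.7, 57, 64.8 and 67.4 CPM in FC mice (0.76 ± 0.24, adjusted p = 0.745). *Ndufa10* had the smallest p for FR over NoFC (0.67 ± 0.22, adjusted p = 0.554) and *Ndufaf4* for NoFR over FC (-0.70 ± 0.33, adjusted p = 0.603). *Cox4i2* was the member furthest towards pericytes in the comparison with astrocytes. Its level in pericytes was 431 to 652 CPM in NoFC, 429 to 602 in FC, 404 to 588 in NoFR and 370 to 653 in FR mice, ranges that overlapped throughout.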

How the data were processed

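Single-cell RNA was captured with 10x chemistry from ACSA-2 sorted amygdala cells in 3 pooled libraries, each with a matrix of gene UMIs and hashtag antibody UMIs. The hashtag list names 16 mice. The authors deposited the counts as filtered feature matrices aligned to mm10, with no normalization. The submitters' processing notes name Cell Ranger 3.0, while the matrix headers name 7.0.0. Whether counting used strand was not stated, and 30 of 93 members overlap another gene of the table, 1 of them on the same strand (*Ndufa13*).

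The members, the classes and the gene lists were chosen with earlier results of these data known. Astrocytes and pericytes were defined by UMI cutoffs on 4 genes, which also left out barcodes carrying both sets of markers. No doublet caller was run. UMI counts were summed per library and class and tested with edgeR 4.0.16 (R 4.3.3, quasi-likelihood, TMM, filterByExpr, library as a block, Benjamini-Hochberg adjustment over all genes tested, threshold 0.05). Each library holds cells of the same mice in both classes, so the library pairs the sums. Deviations of the sums of 1 library from their class means correlated at 0.09, 0.04 and 0.04. The libraries are pools, so p-values measure the spread between these 3 pools or, between conditions, between mice. SD is over libraries or mice, SE is from the edgeR fit, and unscaled CPM carries no TMM factor.

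Hashtags were called with HTODemux of Seurat 5.3.0 (quantile 0.99), after 3 hashtags with under 1000 UMIs in library 2 were left out because the calling failed with them. Doublets by hashtag were dropped there. Of 2664 astrocyte and 1360 pericyte singlets, 1852 and 941 carried a hashtag listed for a mouse of their library. The class sums used all barcodes of a class, so they also hold barcodes assigned to no listed mouse or group. Sums per mouse (at least 10 cells) were tested over all 6 pairs of conditions with the library as covariate.

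Genes named were the 12 members with the largest and the 12 with the smallest log2 fold change among those called and of 1 direction in all libraries, the isoform sets, the 4 subunits of complex II, the 13 mt- protein genes, the member with the smallest p of each pair of conditions, and up to 4 genes per list by size of change. Of the genes this rule names, 1 is not reported here. *Ndufa4l2* was given once as the paralog of *Ndufa4*, and the other promoters, list totals and overlap partners were shown for context. Promoters came from RefSeq (GRCm38.p6) for 77 of 93 members.

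Tests were also tried on simulated counts, with library sizes and spread taken from the real counts. Each gene had 1 mean, pooled over all real sums of the comparison, before the changes were made. For the class comparison (15365 genes), 79% of genes changed by a log2 of 1 and 88% of those changed by 2 were called, and 1.76% of calls were false. For FC over NoFC, 70% and 96% were called among astrocytes (10113 genes, 2.92% false) and 71% and 95% among pericytes (6173 genes, 5.14% false). Only log2 changes of 1 and 2 were made, and wrong hashtag calls were not simulated. These shares therefore do not cover smaller changes, such as those fitted for the members named between conditions. Only 100 genes were changed by each size, whereas 47.3% of genes differed by a log2 of at least 1 between the real classes. The simulated classes were thus far more alike, and their 1.76% of false calls does not carry over to the real class comparison. Alternatives covered DESeq2 1.42.0, no TMM, no block, no filter on low counts, mt- genes left out, stricter classes, at least 100 genes and under 6% mt- UMIs per barcode, hashtag singlets, a depth of 4000 to 8000 UMIs, no smooth muscle barcodes, other hashtag calls and each library left out.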

Additional observations from a re-analysis of the deposited data

Results flagged for a closer look

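Among 87 groups of 4 mice, 2 held a mouse that stood apart from the others by Dixon's ratio (critical value 0.829), which chance gives in about 1 in 20 groups. The summed complex I level in astrocytes of 1 NoFR mouse was 5269 unscaled CPM, while the other NoFR mice lay between 5033 and 5044 (ratio 0.951). *Sdhaf3* in astrocytes of 1 NoFC mouse was at 26 CPM, while the other NoFC mice lay between 11.7 and 13.9 CPM (ratio 0.846).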

How the results depend on the processing

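Of 637 values of 50 named genes under 13 alternatives, 613 kept their side of the threshold. Among these, genes called in the main fit also kept their direction, which was not compared for genes not called. A further 12 passed the threshold only under the alternative, and 9 no longer passed it. The other 3 passed it only under the alternative and with the opposite sign. They were *Atp5g1* (-0.21) and *mt-Cytb* (-0.13) without TMM, and *mt-Nd3* (0.23) among barcodes of 4000 to 8000 UMIs. Members called higher in astrocytes numbered 21 without TMM (52 lower), since TMM shifts all genes together. With each library left out in turn, 35 to 39 members were higher, 31 to 33 lower and 68 to 70 called, and DESeq2 called 30 higher and 27 lower. Without the library block 72 members were called (38 higher, 34 lower), all 72 of them among the 73 called with it and in the same direction.

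The nuclear to mt ratio in astrocytes was 0.625 with stricter classes, 0.643 with at least 100 genes and under 6% mt- UMIs and 0.506 at 4000 to 8000 UMIs per barcode, and in pericytes 0.896 with stricter classes and 0.908 at that depth. With each library left out it was 0.586 to 0.607 and 0.855 to 0.876. In all of these the astrocyte ratio was the lower.

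With stricter hashtag calls 7 astrocyte sums of mice remained, 0 of them NoFC, and of 3071 genes tested, 73 of them members, 32 (1.04%) were called in FR against FC and 52 (1.69%) in FR against NoFR. The calls held 3 members lower in FR than in FC (*Uqcr11*, *Atp5b* and *Atp5g1*) and 3 lower in FR than in NoFR (*Cox6b1*, *Uqcr11* and *Atp5g1*). Library 2 held 1 sum there, an FR mouse, which the library term absorbs, so the FR side of both rested on 1 mouse of library 3 with 12 cells, and nothing is drawn from these calls.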
